A study of Homo sapiens with 7 samples.

Results

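The genes described here encode the proteins of the cytosolic ribosome, RPL genes for the large subunit and RPS genes for the small one. They were measured in cardiac cells grown from the human embryonic stem cell line H1. Members were chosen by symbol alone, with S6 kinase genes, pseudogenes and antisense genes left out. No measured value entered the rule, though earlier results of these data were known when it was set. The 3 single-cell tables held 87 members among 27981 genes. Of these, 31 encode small subunit proteins, 43 large subunit proteins and 3 the acidic stalk (RPLP0, RPLP1 and RPLP2), which are together called the 77 core members below. The other members are 9 paralogs, related genes such as RPL22L1, and 1 readthrough transcript, RPS10-NUDT3. How close each paralog is to its counterpart in protein sequence or in function was not analysed. The CHIR library listed 87 members, the DMSO library 86 and the day 11 library 86. RPL10L, a copy known from testis, was listed in the CHIR table only, with 1 UMI.

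The groups were day 15 cells labelled CHIR (short for CHIR99021, which blocks the kinase GSK3 and thereby switches on canonical Wnt signalling), day 15 cells labelled DMSO (the solvent used as vehicle), and day 11 cells with no treatment in their labels. For CHIR the labels give no dose and no day of addition, and the protocol text of the day 11 sample also names day 15. All 3 groups share the H1 line and a sort for live cells, and the labels call the cells cardiac without naming subtypes. Each group had 1 library, so no difference below has a replicate check, and treatment, day and library cannot be told apart.

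A ribosome holds each of its core proteins in a single copy, apart from the stalk proteins, which are present several times. Cells therefore need the core proteins in about equal amounts, and their mRNAs are among the most abundant in growing cells. These mRNAs begin with a C followed by a run of pyrimidines, the 5′ terminal oligopyrimidine (TOP) tract. Through it the kinase mTORC1 and the RNA-binding protein LARP1 control their translation and stability. Many ribosomal protein genes also host small nucleolar RNAs (snoRNAs) in their introns, and most have processed pseudogenes elsewhere in the genome.

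The start of the transcript is what the members share in sequence, so 60 bases around it are shown for 10 of them, from 40 bases before the annotated start to 20 bases from it. The sequences come from RefSeq promoter windows of 300 bases on GRCh38.p14, in which 69 of the 87 members had an entry. Where a gene had several starts, the one with the longest pyrimidine run after a C was taken. Capitals mark that run from the start onwards, and a sequence without capitals does not begin with C. The first 3 are the members with an entry that stood highest in the CHIR library relative to DMSO, at chr19:49487568-49487627 (plus strand), chr11:8682752-8682811 (plus) and chr19:39435930-39435989 (minus).
RPL13A: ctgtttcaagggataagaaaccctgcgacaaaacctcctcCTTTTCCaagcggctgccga
RPL27A: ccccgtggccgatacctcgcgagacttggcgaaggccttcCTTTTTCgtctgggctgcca
RPS16: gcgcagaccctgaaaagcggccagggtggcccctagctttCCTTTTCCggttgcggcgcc
The next 3 are the core members with an entry that stood lowest, at chr12:56041878-56041937 (plus), chr19:8321456-8321515 (plus) and chrX:119791611-119791670 (minus).
RPS26: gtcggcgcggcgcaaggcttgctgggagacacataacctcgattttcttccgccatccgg
RPS28: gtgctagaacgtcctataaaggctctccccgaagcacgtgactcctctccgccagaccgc
RPL39: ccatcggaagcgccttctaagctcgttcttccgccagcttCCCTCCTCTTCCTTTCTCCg
The last 4 set core genes beside their paralogs, RPS27 at chr1:153990722-153990781 (plus), RPS27L at chr15:63157458-63157517 (minus), RPL22 at chr1:6199576-6199635 (minus) and RPL22L1 at chr3:170870176-170870235 (minus).
RPS27: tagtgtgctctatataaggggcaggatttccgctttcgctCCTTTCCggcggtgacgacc
RPS27L: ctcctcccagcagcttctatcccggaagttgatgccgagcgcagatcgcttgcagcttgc
RPL22: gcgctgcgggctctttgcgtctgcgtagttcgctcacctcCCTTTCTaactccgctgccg
RPL22L1: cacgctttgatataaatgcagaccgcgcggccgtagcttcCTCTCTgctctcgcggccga

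A C followed by at least 4 pyrimidines at the annotated start was found in 46 of 62 core members (74.2%), in 2 of 7 paralogs (28.6%) and in 5.14% of 27305 genes with an entry. The letters CCGGAAG, searched on both strands of the 300 bases, were in 33.9% of core members and 10.6% of all genes, and TATAA in 19.4% and 21.4%. Among core members with an entry, the tract was present in 11 of 18 that stood above the group in the CHIR library relative to DMSO, in 5 of 8 below it and in 30 of 36 between. A match is a description of these letters, and no match says only that they are not in this window.

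Ribosomal protein genes took 33.3% of all UMIs (unique molecular identifiers, one for each captured transcript end) in the CHIR library, 25.4% in the DMSO library and 15.6% at day 11. The cells numbered 5607, 4015 and 5683 in that order, with 81076689, 65675862 and 75906387 UMIs, so the exact binomial 95% intervals of these shares were narrow, from 33.33% to 33.35% with CHIR, from 25.37% to 25.39% with DMSO and from 15.57% to 15.59% at day 11. These and all intervals below cover counting error only. The middle 50% of cells lay between 30.1% and 37.1% with CHIR, between 20.8% and 28.6% with DMSO, and between 11.0% and 18.4% at day 11. The middle ranges of the 3 libraries did not overlap. The median cell held 4310, 3787 and 1812 ribosomal protein UMIs, out of 12687, 15250 and 12689 UMIs in all. The small subunit supplied 41.1% of ribosomal protein UMIs with CHIR, 38.9% with DMSO and 39.7% at day 11.

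Other measures moved with the libraries. Mitochondrial genes took 4.80%, 3.85% and 2.66% of UMIs in the CHIR, DMSO and day 11 libraries, and the nuclear RNA MALAT1 took 2.05%, 2.58% and 2.61%. The median cell had 3346, 3644 and 4367 genes. Long genes stood far higher at day 11: among genes other than the members, the median log2 ratio of DMSO over day 11 was 0.11 for genes under 5 kb, −0.11 for 5 to 20 kb, −0.79 for 20 to 100 kb and −1.89 above 100 kb. The same medians of CHIR over DMSO were −0.42, −0.05, 0.20 and 0.30. The members are short, with a median gene length of 5.05 kb. When only UMIs of genes under 20 kb were counted, an alternative chosen after this trend was seen, members took 47.8% with CHIR, 36.0% with DMSO and 28.5% at day 11. This kept the order of the libraries, and the DMSO over day 11 gap was narrower. The part of gene length in the shares was not tested further, and the sources used here do not say whether intronic reads were counted.

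Cells were sorted into classes by marker UMIs per 10000 UMIs of the cell, with no ribosomal protein gene among the markers. Muscle-gated cells had at least 40 UMIs of 6 muscle genes (TNNT2, ACTN2, MYH6, TTN, MYBPC3 and TNNI1), and mesenchymal-gated cells at least 10 of 6 matrix genes (COL1A1, COL1A2, COL3A1, LUM, DCN and POSTN). The muscle list summed to 15694, 14670 and 19802 CPM (UMIs of a gene per 1000000 UMIs) with CHIR, with DMSO and at day 11 in muscle-gated cells, and to 605, 1289 and 1379 CPM in mesenchymal-gated cells. Muscle-gated cells numbered 1343, 1895 and 3429, and mesenchymal-gated cells 3633, 1596 and 1255, so the CHIR library was mostly mesenchymal-gated and the day 11 library mostly muscle-gated. Mesenchymal-gated cells also differed in the 4 smooth muscle markers, which summed to 517 CPM with CHIR, 2572 with DMSO and 4324 at day 11, and in the 5 epicardial markers at 78.7, 294 and 184 CPM. Their part in the results below was not tested.

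Muscle-gated cells carried a smaller ribosomal protein share than mesenchymal-gated cells in each of the 3 libraries. The share was 30.6% in muscle-gated and 34.5% in mesenchymal-gated cells with CHIR, 22.1% and 28.1% with DMSO, and 12.6% and 20.2% at day 11. The order of the libraries was the same within each class as over all cells. Cells that passed both gates lay between, at 32.5% (390 cells), 24.3% (317 cells) and 15.3% (673 cells). Their median UMIs were 22957, 19103 and 15037, against 14290, 12891 and 11491 in muscle-gated and 11789, 17778 and 16303 in mesenchymal-gated cells. Whether some of them were droplets with 2 cells was not tested for this class. Endothelial-gated cells were at 33.0% (34 cells), 27.4% (32 cells) and 20.5% (56 cells). Endoderm-gated cells were at 32.5%, 23.3% and 18.7%, from 7, 19 and 130 cells, and cells that passed no gate at 36.0%, 27.5% and 22.9%. Day 11 had the lowest share in all 6 classes and CHIR the highest.

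**Figure D1:**
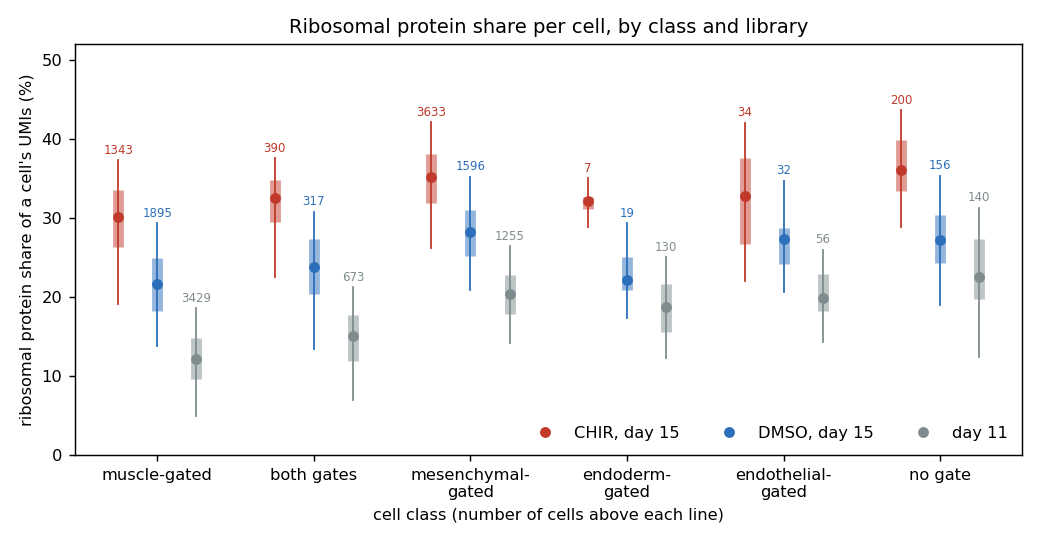
Ribosomal protein share of each cell's UMIs (%, vertical axis) by cell class, with CHIR in red, DMSO in blue and day 11 in grey. Points are medians over cells, thick bars the middle 50% of cells, thin lines the 5th to 95th percentile of cells, and small numbers the cells, and in each class the day 11 point is lowest and the CHIR point highest.

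In muscle-gated cells the share was lowest in the cells with the fewest UMIs. With CHIR it was 21.8% in the 117 muscle-gated cells under 8000 UMIs, 32.1% between 16000 and 24000 and 33.1% in the 87 cells with 24000 or more. With DMSO it was 18.7%, 22.7% and 22.4% in the same bins, and at day 11 9.02%, 13.8% and 13.5%, the last from 5 cells. In mesenchymal-gated cells it was 34.5%, 33.3% and 32.8% with CHIR, 25.7%, 29.0% and 27.2% with DMSO, and 18.6%, 20.2% and 19.3% at day 11, with 19 DMSO and 38 day 11 cells in the lowest bin. Between 12000 and 16000 UMIs, muscle-gated against mesenchymal-gated cells were at 30.2% and 35.1% with CHIR, 22.7% and 28.1% with DMSO, and 13.1% and 20.4% at day 11.

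Cells with at least 5 UMIs of 7 cell cycle genes per 10000 (MKI67, TOP2A and 5 others) were called cycling. They had a lower share than the rest of their class, except in day 11 muscle-gated cells, where the shares were nearly equal. Cycling mesenchymal-gated cells were at 31.0% and the others at 35.6% with CHIR, at 27.3% and 28.3% with DMSO, and at 19.1% and 20.5% at day 11. Cycling muscle-gated cells were at 28.6% and the others at 30.9% with CHIR, and at 21.3% and 22.2% with DMSO. At day 11 they were at 12.5% and 12.6%, while the medians per cell were 12.4% in cycling muscle-gated cells and 12.2% in the others. In the CHIR library cycling mesenchymal-gated cells also held more UMIs, with a median of 15925 against 11215, and their median count of ribosomal protein UMIs was higher, at 4874 against 4041.

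Because 1 UMI stands for 1 transcript end, CPM values of different genes were set side by side without scaling by length. The part of gene length, and of reads shared with pseudogenes, in the levels of single genes was not tested. The core members were more even in the CHIR library than in the others. The ratio of the upper to the lower quartile of their levels was 1.87 with CHIR, 3.55 with DMSO and 4.86 at day 11, and their median level was 3958, 3050 and 1575 CPM. Core members under 1000 CPM numbered 3 with CHIR, 14 with DMSO and 25 at day 11. Between the most and the least abundant core member the level differed 16.3-fold with CHIR, 49.6-fold with DMSO and 25.8-fold at day 11. Together, the most abundant 10 members took 24.6%, 28.7% and 30.3% of ribosomal protein UMIs.

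**Figure D2:**
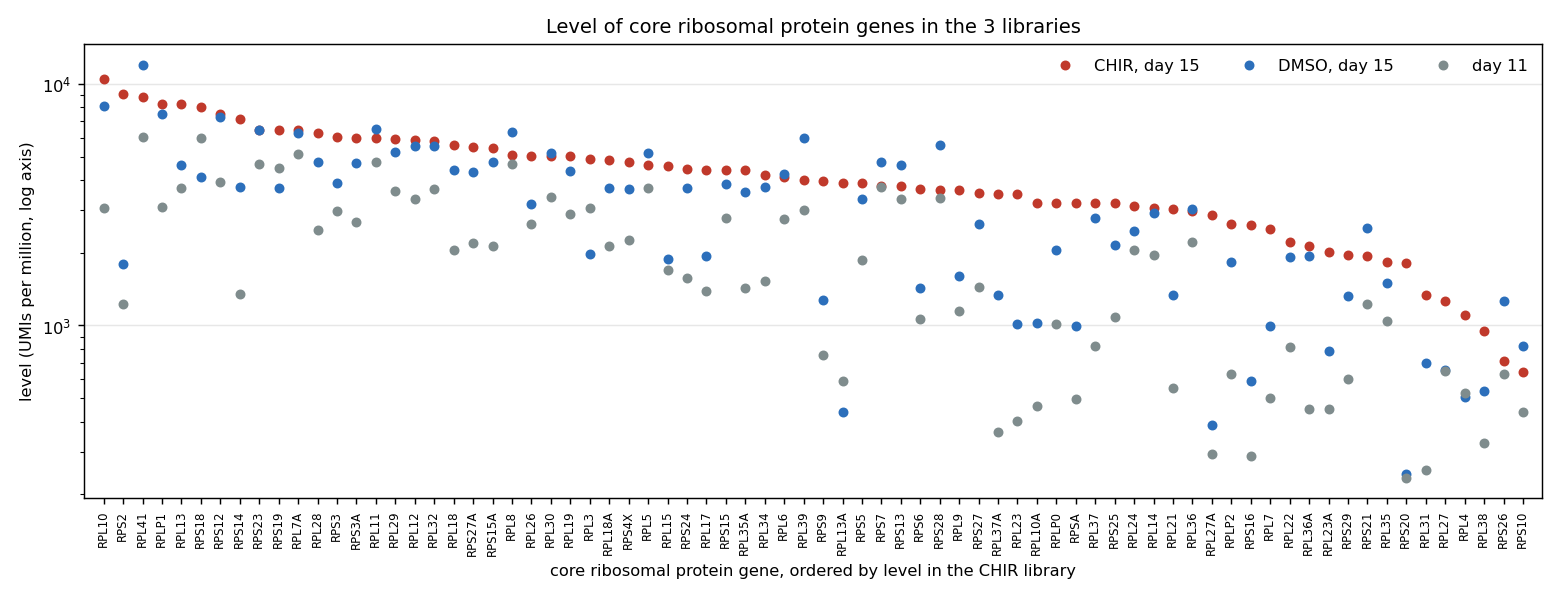
Level of 74 of the 77 core members (CPM, log axis) in the CHIR (red), DMSO (blue) and day 11 (grey) libraries, ordered by their level with CHIR. The CHIR points form a narrow band, 3 of them under 1000 CPM, while 12 DMSO points and 23 day 11 points lie under that level.

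RPL10, a large subunit protein that joins late and is needed before the subunits can combine, had the highest level with CHIR, at 10488 CPM, against 8084 with DMSO and 3058 at day 11. RPL41, which encodes a very short basic peptide, was highest in the other libraries, with 8820 CPM with CHIR, 12024 with DMSO and 6052 at day 11. RPS2, a small subunit protein near the mRNA entry channel, was second with CHIR at 9098 CPM but ranked 53 with DMSO (1806 CPM) and 46 at day 11 (1230 CPM). The stalk gene RPLP1 was at 8235, 7480 and 3101 CPM, and RPL13 at 8230, 4630 and 3718. The 5 highest with DMSO also held RPS12 (7497, 7325 and 3928 CPM with CHIR, with DMSO and at day 11) and RPL11 (5957, 6535 and 4742 CPM). RPL11 forms with RPL5 and 5S RNA a particle that can bind the p53 ligase MDM2. At day 11 they held RPS18 (8020, 4130 and 5997 CPM), RPL7A (6421, 6290 and 5124 CPM) and RPS23 (6455, 6441 and 4663 CPM). RPS23 lies at the decoding centre, and its CHIR over DMSO ratio was 1.002 (0.998 to 1.01). The lowest of the core were RPS10 with CHIR, at 643 CPM against 822 with DMSO and 439 at day 11, and RPS20 in the other libraries, at 1806 CPM with CHIR against 242 with DMSO and 235 at day 11.

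Of the 77 core members, 63 were highest in the CHIR library, 14 in the DMSO library and 0 at day 11, and 58 followed the order CHIR, DMSO, day 11. Over all 15461 genes listed in the 3 tables with at least 200 UMIs, 18.2% were highest with CHIR, 19.0% with DMSO and 62.8% at day 11, and 6.998% followed that order. The RPS4X gene, whose Y-linked copy is counted among the paralogs with no value given here, was at 4750, 3657 and 2255 CPM.

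In CHIR over DMSO, 84 of the 86 members listed in both tables had at least 200 UMIs over both libraries, RPL3L and RPS10-NUDT3 being the exceptions. Their median ratio was 1.27, a log2 ratio of 0.34, against 0.09 over all 13636 genes of at least 200 UMIs. The members spread widely around that median, over log2 ratios from −0.94 to 3.14. Of the 84, 64 were higher and 20 lower with CHIR. At least 1.5-fold higher were 31 (36.9%), beside 24.7% of all genes, and at least 1.5-fold lower were 5 (5.95%), beside 21.2%. A member was said to depart when it lay at least 1.5-fold from the median of the members. By that rule 25 stood above (20.9% of all genes did so around their own median) and 13 below (24.3% of all genes), together 38 of 84 (45.2%). Over all genes the rule also gave 45.2%, and among 865 other genes of at least 20000 UMIs it gave 36.6%. The members thus departed from each other about as often as all genes did, and more often than those 865 genes. The median was 0.38 for the small subunit, 0.35 for the large subunit, 0.51 for the stalk and −0.48 for the 7 measured paralogs.

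RPL13A, a large subunit protein also known for silencing inflammatory transcripts in its free form, stood farthest above. It had 3884 CPM with CHIR and 439 with DMSO, a ratio of 8.84 (8.73 to 8.95), and 589 CPM at day 11. RPS20, of the small subunit head, had 1806 CPM with CHIR and 242 with DMSO, a ratio of 7.45 (7.33 to 7.58). RPL27A had 2861 CPM with CHIR and 388 with DMSO, a ratio of 7.38 (7.29 to 7.48), and 295 CPM at day 11. With CHIR these 3 genes ranked 40, 70 and 60 by level among the 87 members.

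RPS2 followed with a ratio of 5.04 (5.01 to 5.07), and RPS16 had one of 4.41 (4.37 to 4.46). RPS16, whose tail reaches the decoding site, was at 2606 CPM with CHIR, 591 with DMSO and 287 at day 11. RPL23 was at 3492, 1015 and 404 CPM, with a CHIR over DMSO ratio of 3.44 (3.41 to 3.47). RPSA, also known as the laminin receptor precursor, was at 3209, 993 and 497 CPM, a ratio of 3.23 (3.21 to 3.26). RPL10A and RPS9 had ratios of 3.15 and 3.12. All of these had their lowest level at day 11. A further 14 above the group had ratios from 1.91 to 2.64, among them RPS6, the classic substrate of the S6 kinases (3673, 1433 and 1064 CPM, ratio 2.56), RPL3, which lies near the peptidyl transferase centre (4888, 1972 and 3067 CPM, ratio 2.48) and RPL4 (1109, 504 and 526 CPM, ratio 2.20).

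Below the group, 4 of 13 were paralogs. RPL39L, a copy of RPL39 best known from male germ cells, was at 28.05 CPM with CHIR, 53.8 with DMSO and 51.2 at day 11, and its CHIR over DMSO ratio was 0.522 (0.495 to 0.550). RPS27L, a p53 target, was at 199, 375 and 283 CPM, a ratio of 0.530 (0.520 to 0.541), and RPL22L1 at 188, 334 and 272 CPM, a ratio of 0.562 (0.550 to 0.574). The fourth, RPL26L1, had a ratio of 0.716 (0.693 to 0.739). Of the core members, RPS26 at the mRNA exit was lowest, at 716, 1267 and 629 CPM with a ratio of 0.565 (0.559 to 0.571). RPS28 was at 3642, 5604 and 3371 CPM (ratio 0.650), RPL39 at 3985, 5955 and 2998 CPM (0.669) and RPL41 had a ratio of 0.734. RPS21, RPS10, RPS7, RPL8 and RPS13 had ratios from 0.767 to 0.812. Next to the limit, RPS14 lay just inside the members above with a ratio of 1.91 and RPL13 just outside with 1.78, and below the group RPS13 lay just inside with 0.812 and the autosomal RPL5 outside with 0.894.

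Most departures over all cells were also seen in both classes. The 2 classes make up most of all cells, so this agreement is partly built in. In muscle-gated cells the median log2 ratio was 0.37 and 34 of 84 members departed (40.5%, beside 39.6% of all genes), and in mesenchymal-gated cells it was 0.22 and 39 departed (46.4%, beside 51.5%). Of the 25 members above in all cells, 23 were above in muscle-gated and in mesenchymal-gated cells alike, and of the 13 below 10 were. RPL31, RPS14, RPS10, RPL8 and RPS13 were within the limit in muscle-gated cells. RPL13A had log2 ratios of 2.88 in muscle-gated and 3.46 in mesenchymal-gated cells, and RPL27A of 2.86 and 2.82. The log2 ratios in the 2 classes differed by a median of 0.17 over the members, 0 members were 1.5-fold higher in one class and 1.5-fold lower in the other, and 1 differed by 1.5-fold or more between classes. That 1 was RPS27L, at −0.47 in muscle-gated and −1.18 in mesenchymal-gated cells, named after its values were seen.

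**Figure D3:**
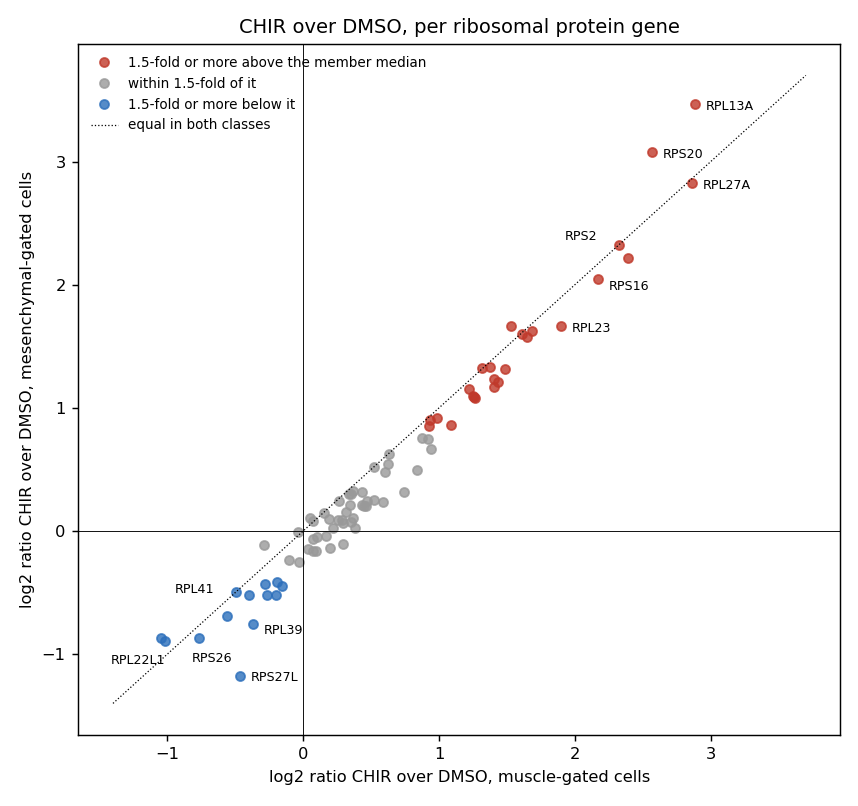
Log2 ratio of CHIR over DMSO of each measured member other than the Y-linked one, in muscle-gated cells (horizontal) and mesenchymal-gated cells (vertical), coloured by its place relative to the median of all members in all cells. Points lie along the dotted line of equal ratios, from RPL22L1 and RPS27L at the lower left to RPL13A at the upper right.

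In DMSO over day 11, 85 members were measured and stood together more closely. Their median ratio was 1.56, a log2 ratio of 0.64, while the median of all 14775 genes was −0.67. Of the 85, 79 were higher with DMSO and 6 lower, 48 were at least 1.5-fold higher (56.5%, beside 7.28% of all genes) and 2 at least 1.5-fold lower (beside 52.9%). Departing members numbered 15 above, beside 29.1% of all genes, and 8 below, beside 31.2%. Together they were 27.1% of the members, beside 60.4% of all genes and 26.8% of 929 other genes of at least 20000 UMIs. TMM scaling, which takes most genes as equal, raised every log2 ratio of this comparison by 0.67, and the median of the members was then 1.31. Both scalings put the members higher with DMSO. The median was 0.81 for the small subunit, 0.61 for the large subunit, 1.27 for the stalk and 0.22 for the paralogs.

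Above the group, RPL36A had 1948 CPM with DMSO and 451 at day 11, a ratio of 4.32 (4.27 to 4.37), RPL37A 1335 and 361 CPM (3.69, 3.64 to 3.74) and RPL37 2783 and 822 CPM (3.39, 3.36 to 3.42). The stalk gene RPLP2 had a ratio of 2.91 (2.88 to 2.94), RPS14 of 2.76, RPL31 of 2.76, RPL10 of 2.64 and RPL23 of 2.51. RPS14 is the gene tied to anaemia in the 5q deletion syndrome. A further 6 above the group had ratios from 2.36 to 2.50.

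Below the group, RPL3 was at 1972 CPM with DMSO and 3067 at day 11, a ratio of 0.643 (0.639 to 0.647). RPS18 was at 4130 and 5997 CPM (0.689, 0.685 to 0.692), RPL13A at 439 and 589 CPM (0.746, 0.735 to 0.757) and RPS19, the gene most often mutated in Diamond-Blackfan anaemia, at 3724 and 4508 CPM (0.826, 0.822 to 0.830). These 4 and RPL4 (0.958) were the core members lower with DMSO than at day 11, and with the TMM shift added all 5 would be higher with DMSO. RPL27 and RPS20 had ratios of 1.02 and 1.03. The readthrough RPS10-NUDT3 had 102 UMIs with DMSO and 271 at day 11, a ratio of 0.435 (0.343 to 0.548). It shares exons with RPS10, so its count and that of RPS10 are uncertain. In both gated classes, which are also part of all cells, 10 of the 15 above and 4 of the 8 below departed the same way. Taken class by class, 25.9% of members departed in muscle-gated and 29.8% in mesenchymal-gated cells, beside 58.1% and 55% of all genes. Agreement between the classes was not counted over all genes, so it has no background share.

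Between the classes of 1 library, the members kept closely together at day 15. The median log2 ratio of muscle-gated over mesenchymal-gated cells was −0.17 with CHIR, −0.32 with DMSO and −0.62 at day 11. Of the members, the middle 50% spanned 0.23, 0.21 and 0.49 on the log2 scale, while the same span over other genes of at least 20000 UMIs was 0.98, 1.17 and 1.66. Departing members numbered 2 of 84 with CHIR (2.38%), 2 of 84 with DMSO (2.38%) and 11 of 85 at day 11 (12.9%), beside 42.4%, 49.6% and 51.2% of all genes. Over the 84 members measured in all 3 libraries, 66 were lower in muscle-gated cells in each and 2 were higher in each. This count was not made over all genes, so it has no background share. The median log2 ratio of all genes of at least 200 UMIs was −0.03 in the CHIR library, 0.09 in the DMSO library and 0.30 in the day 11 library.

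The 2 higher were RPL13A and RPL4, named after their values were seen. RPL13A had 4173 CPM in muscle-gated and 3847 in mesenchymal-gated cells with CHIR, 566 and 348 with DMSO, and 704 and 405 at day 11. RPL4, whose long loop lines the exit tunnel, had 1257 and 1052 CPM, 523 and 497 CPM, and 539 and 520 CPM in the same order. With CHIR, RPS27L stood above the group (247 and 172 CPM) and RPL22L1 below it (125 and 217 CPM). RPS6 lay toward the lower end in each library, at 2827 and 4066 CPM with CHIR, 1045 and 1753 with DMSO, and 731 and 1610 at day 11.

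**Figure D4:**
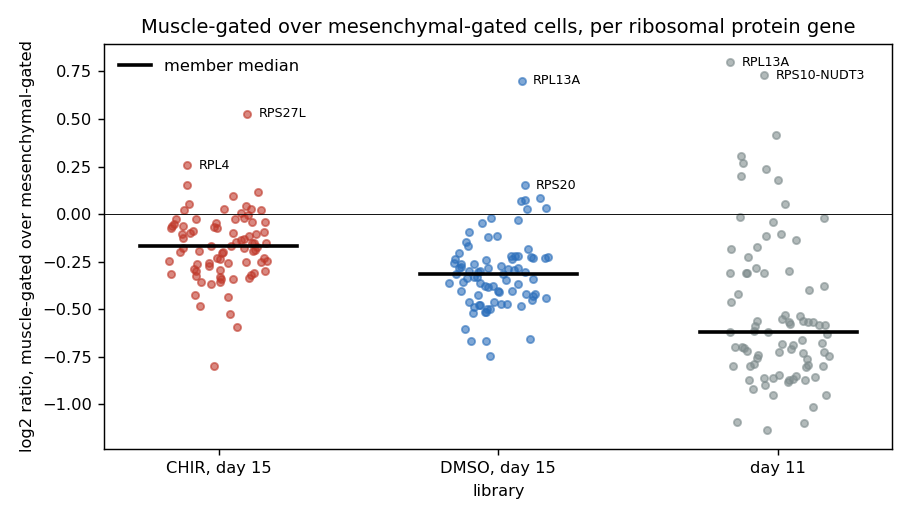
Log2 ratio of muscle-gated over mesenchymal-gated cells for each measured member other than the Y-linked one, in each library, with black bars at the median of the members and the 2 highest members of each library named. The points form narrow groups below 0 with CHIR and DMSO and a wider one at day 11, with RPL13A highest in the DMSO and day 11 libraries.

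At day 11, 11 members stood above the group in muscle-gated over mesenchymal-gated cells, beside 25% of all genes, and 0 below. Of these, 10 are also among the 25 members above the group in CHIR over DMSO, a comparison that used no day 11 cell. Among them are RPL13A, RPL23, RPL37A, RPL4, RPL7, RPS2, RPS20 and RPSA, and all 10 together make up 10 of 11 of the first list and 10 of 25 of the second. Over all 12508 genes measured in both comparisons, 2818 lay at least 1.5-fold above the median at day 11 and 2479 in CHIR over DMSO. Genes in both sets made up 17.2% of the first and 19.5% of the second. RPS2 had 1314 CPM in muscle-gated and 1090 in mesenchymal-gated day 11 cells, a ratio of 1.20 (1.19 to 1.22), and RPS20 258 and 193 CPM, a ratio of 1.33 (1.29 to 1.39), while the median member was at 0.650. Over all 25 core members above in CHIR over DMSO, the median log2 ratio of muscle-gated over mesenchymal-gated cells at day 11 was −0.17, against −0.72 over the 43 core members within 1.5-fold and −0.73 over the 9 below. With CHIR the same medians were −0.15, −0.18 and −0.19, and with DMSO −0.26, −0.36 and −0.38, in cells that also entered the comparison that formed the sets. These 25 members were also low at day 11, with a median of 526 CPM, against 2212 and 3326 CPM in the other sets. With CHIR their median was 3227 CPM, against 4853 and 3767 CPM.

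Members that host snoRNAs lay somewhat higher in CHIR over DMSO. Of 29 snoRNA hosts, 12 stood above the group and 2 below, with a median log2 ratio of 0.51. Of 55 members without one, 13 stood above and 11 below, with a median of 0.21. At least 1.5-fold higher with CHIR were 48.3% of the hosts and 30.9% of the other members, beside 38.6% of 259 other genes that host a snoRNA and 20.7% of 6206 that do not. These genes other than the members were limited to at least 2000 UMIs, and the members to at least 200. Among these genes other than the members the medians were 0.41 for hosts and 0.00 for genes without a snoRNA. In DMSO over day 11 the medians of the members were 0.63 and 0.67. RPL13A, RPL4, RPL3, RPL23A and RPL7A each host 4 snoRNAs, yet RPL7A had a CHIR over DMSO ratio of 1.02. The sources used here do not say how reads shared with processed pseudogenes were counted. The 38 members with at least 20 named pseudogenes had a median of 0.28 in CHIR over DMSO, against 0.36 for the 46 with fewer.

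Each of 6 paralogs took its smallest share of its pair in the CHIR library and its largest at day 11. RPL22L1, which can stand in for the RNA-binding protein RPL22, made up 7.84% of the pair's UMIs with CHIR, 14.8% with DMSO and 24.99% at day 11. RPS27L made up 5.33%, 12.5% and 16.4%, RPL7L1 5.16%, 10.6% and 17.3%, RPL26L1 1.69%, 3.65% and 4.198%, and RPL39L 0.699%, 0.895% and 1.68%. RPL36AL was the majority of its pair at day 11, at 60.8%, against 26.2% with CHIR and 29.5% with DMSO. In that pair the parent RPL36A was at 2128, 1948 and 451 CPM, while RPL36AL was at 754, 817 and 700 CPM. From lowest to highest of the 3 libraries, the paralogs themselves varied less than their counterparts, though RPL39L only slightly less than RPL39. RPL7L1 was at 136, 118 and 105 CPM beside 2498, 994 and 502 CPM of RPL7. Between CHIR and DMSO alone, RPL22L1, RPS27L and RPL39L varied more than their counterparts and the others less. There RPL22L1 was at 188 and 334 CPM beside 2209 and 1924 CPM of RPL22.

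Within classes the order of the libraries held for RPL22L1, at 6.01%, 13.7% and 23.5% in muscle-gated and 8.62%, 15.5% and 27.9% in mesenchymal-gated cells. RPS27L took a larger share in muscle-gated than in mesenchymal-gated cells, at 8.17% and 4.23% with CHIR, 14.2% and 11.1% with DMSO, and 17.8% and 15.4% at day 11. RPL3L, which replaces RPL3 in adult heart and skeletal muscle, was almost absent. It had 3 UMIs with CHIR, 3 with DMSO and 17 at day 11, and in muscle-gated cells 0, 1 and 6 UMIs beside 100260, 50250 and 101928 of RPL3. A count of 0 with CHIR allows a share of the pair of up to 0.00368% in muscle-gated cells.

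**Figure D5:**
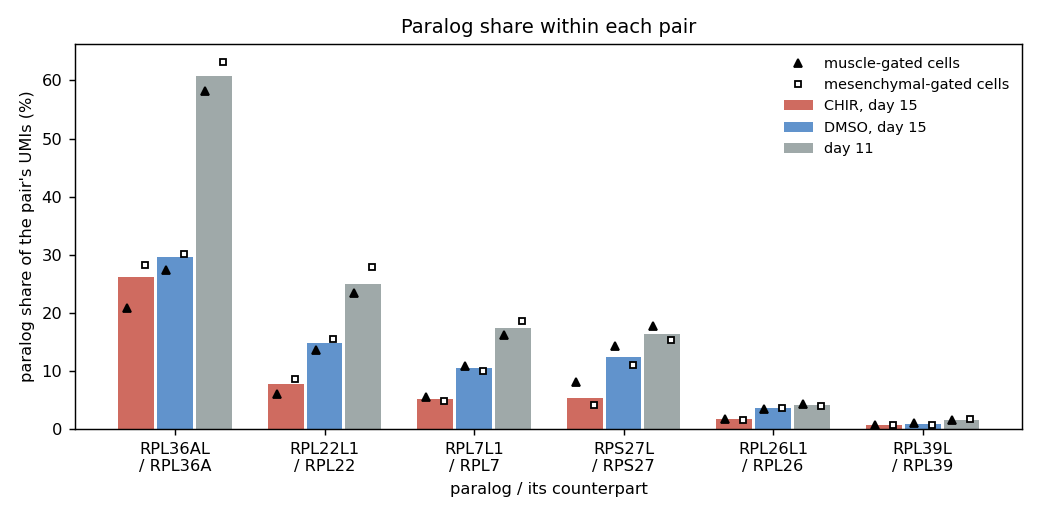
Share of each paralog in the summed UMIs of the pair with its counterpart (%, vertical axis) in the CHIR (red), DMSO (blue) and day 11 (grey) libraries. Bars are all cells, triangles muscle-gated and squares mesenchymal-gated cells, and the bars of every pair are lowest with CHIR and highest at day 11.

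Other genes of the translation machinery were described from lists, which were chosen with earlier results of these data known. Counts are of list members at least 1.5-fold apart, beside all genes of at least 20 UMIs. Of all these genes, 25.4% were that much higher and 26.1% that much lower in CHIR over DMSO. Of 23 TOP mRNAs that encode no RPL or RPS protein, 13 were higher with CHIR and 0 lower, with a median log2 ratio of 0.61. The elongation factor EEF1A1 had 9554 CPM with CHIR and 5259 CPM with DMSO, TPT1, which encodes the translationally controlled tumour protein, at 4248 and 1834 CPM, and RACK1, a scaffold on the small subunit, at 4185 and 2748 CPM. EEF2, which moves the ribosome along the mRNA, was 3.13-fold higher (3.09 to 3.18), the initiation factor subunit EIF3E 2.88-fold and EIF2S3 2.51-fold.

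Of 15 snoRNA host RNAs, most of them TOP transcripts, 12 were higher with CHIR and 0 lower, with a median of 1.61. GAS5 had 1257 CPM with CHIR and 123 CPM with DMSO, SNHG29 at 2386 and 2235 CPM, and ZFAS1 at 1257 and 405 CPM. SNHG19 and SNHG32 were 7.13-fold and 6.42-fold higher. Of 30 genes of ribosome biogenesis, 18 were higher and 0 lower (median 0.71). UBTF, a factor of RNA polymerase I transcription, was 3.47-fold higher (3.20 to 3.76), the polymerase subunit POLR1A 3.001-fold (2.61 to 3.46) and the snoRNP protein NOP56 2.76-fold (2.64 to 2.88). Nucleolin, NCL, had 621 CPM with CHIR and 306 CPM with DMSO, while NOP10 was at 222 and 290 CPM and NHP2 at 149 and 203 CPM.

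Of 21 further initiation factors, 9 were higher with CHIR and 0 lower, with a median of 0.35. EIF3A was 3.03-fold higher (2.96 to 3.10), the scaffold EIF4G1 2.23-fold and the helicase EIF4A1 2.22-fold, at 1094 and 492 CPM, while EIF1 was at 1732 and 1594 CPM. Of 10 chaperones and transport factors of ribosomal proteins, 2 were higher and 1 lower (median 0.08). NAP1L1, also a TOP mRNA of the list above, was at 930 and 552 CPM, RPS19BP1 at 116 and 120 CPM, ZNF593 at 78.4 and 77.7 CPM, HEATR3, which brings RPL5 into the nucleus, was 2.28-fold higher and PDCD2L had a ratio of 0.563. Of 18 genes of growth control, 6 were higher and 3 lower (median 0.22). RHEB, the activator of mTORC1, was at 78.3 and 211 CPM, EIF4EBP1, the mTORC1-controlled repressor of cap binding, at 318 and 656 CPM, and DDIT4 at 307 and 368 CPM. SESN2, a leucine sensor, was 2.65-fold higher (2.39 to 2.94). LARP1 was at 60.2 and 31.8 CPM and MYC at 4.05 and 4.35 CPM, both named after their values were seen.

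The lists stood differently in DMSO over day 11, where 8.28% of all genes were at least 1.5-fold higher and 54.5% lower. Of the TOP mRNAs 3 stood higher and 3 lower (17 and 0 under TMM scaling), of the snoRNA hosts 7 and 1 (11 and 0), of the biogenesis genes 1 and 8 (11 and 3), of the initiation factors 3 and 6 (13 and 2), of the chaperones 1 and 1 (6 and 1), and of growth control 2 and 10 (4 and 4). RACK1 was 2.36-fold higher with DMSO, SNHG29 2.70-fold, EIF5A 2.32-fold, TSR2, the chaperone of RPS26, 1.81-fold and DDIT4 3.17-fold. POLR1A had a ratio of 0.207 (0.180 to 0.237), MTOR of 0.236 (0.211 to 0.263) and RPTOR, which encodes the defining subunit of mTORC1, of 0.0701 (0.0589 to 0.0828). In this comparison the median log2 ratio of genes other than the members fell from 0.11 under 5 kb to −1.89 above 100 kb. The part of gene length in the ratios of these lists was not tested.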

How the data were processed

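The members and lists were chosen with earlier results of these data known. The authors deposited raw UMI counts (whole numbers, with no normalisation) for 3 droplet libraries that count 3′ ends. Per the submitters' processing notes they were made with Cell Ranger 6.1.1 on GRCh38, and with R 4.1.0 and Seurat 4.3.0 for day 11. Cells held 1802 to 5994 genes with CHIR, 1804 to 5990 with DMSO and 1811 to 5999 at day 11, so a filter on genes had been applied before deposit. All deposited cells were used. The libraries shared at most 6 cell barcodes in any pair. An H3K27ac peak list on hg19 was not used here.

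Members matched RPL or RPS symbols. RPLP0, RPLP1 and RPLP2 were kept, because the rule names them, although their symbols end in P and a digit. Endoderm (TTR, APOA2, APOA1, AFP, FGB) and endothelial (PECAM1, CDH5, PLVAP, EMCN, EGFL7, ECSCR) gates needed 10 UMIs per 10000, in cells that did not pass the muscle gate. Such cells were placed there even if they also passed the mesenchymal gate, with endoderm taken before endothelial. Gates were set on marker distributions alone. Neural markers summed to at most 127 CPM, pluripotent markers to at most 39.9 CPM and blood markers to at most 0.239 CPM in muscle-gated and mesenchymal-gated cells. UMIs were summed over cells and divided by all UMIs of those cells (CPM). Ratios have exact conditional binomial 95% intervals, and 0.5 was added to each count before log2 ratios were taken. No test was possible with 1 library per group, so no p-value is given. Ratios and intervals were tested on simulated counts with known folds. Scrublet (scanpy 1.11.5, expected rate 0.06) called 239 DMSO cells (5.95%), 0 CHIR cells and 1 day 11 cell, so it worked in the DMSO library alone, and doublets were left in except in an alternative. TMM factors came from edgeR 4.0.16.

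Named in full were the 5 highest and 5 lowest members by level in each library, departing members (at most 15 per comparison) and paralogs, and of each list the 3 highest and the 3 with the largest ratio either way. A few genes that this rule would name are not reported here.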

Additional observations from a re-analysis of the deposited data

How the results depend on the processing

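No paired analysis was possible because each group had 1 library, and replicate numbers are given only for the chromatin samples, which were not used. Leaving out a replicate was not possible for the same reason. The members' levels rest on many UMIs, so counting error is small beside the unknown spread between libraries.

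The ribosomal protein share with CHIR, with DMSO and at day 11 was 33.8%, 24.8% and 14.4% as the median of cells, 35.0%, 26.4% and 16.0% without mitochondrial genes, 31.9%, 24.2% and 15.1% without the stalk genes, 33.9%, 24.3% and 14.5% in cells of 8000 to 16000 UMIs, and 47.8%, 36.0% and 28.5% over genes under 20 kb. Without Scrublet doublets it was 25.3% with DMSO. With gates halved, muscle-gated cells were at 30.7%, 22.2% and 12.5% and mesenchymal-gated cells at 34.6%, 28.4% and 20.7%. With gates doubled they were at 30.7%, 22.0% and 12.6%, and at 34.1%, 28.01% and 19.7%. The order of libraries and classes held in each of these.

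The median log2 ratio of members in CHIR over DMSO was 0.36 with TMM factors and 0.54 without ribosomal protein and mitochondrial genes in the totals. In muscle-gated cells it was 0.43 and 0.56 under these, 0.36 with gates halved and 0.40 doubled. In mesenchymal-gated cells it was 0.16 and 0.40, 0.21 with a minimum of 20 UMIs and 0.21 with gates halved. In DMSO over day 11 it was 1.31 with TMM factors, 0.85 without those genes and 0.63 without doublets. In muscle-gated cells it was 1.37 and 0.94, and 0.75 with gates halved. In mesenchymal-gated cells it was 1.10 and 0.67, 0.47 with a minimum of 20 UMIs, and 0.48 and 0.52 with gates halved and doubled. Muscle-gated over mesenchymal-gated cells gave −0.15 with CHIR and −0.30 with DMSO with gates doubled, and −0.66 and −0.58 at day 11 with gates halved and doubled.

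Departures do not depend on the totals, since all members shift together. At a 2-fold limit, members above and below in CHIR over DMSO numbered 14 and 4 in all cells, 15 and 3 in muscle-gated and 15 and 4 in mesenchymal-gated cells. In DMSO over day 11 they numbered 4 and 4, 3 and 4, and 7 and 3.

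With TMM factors, the DMSO over day 11 lists counted 1.5-fold higher and lower changed to 17 and 0 for TOP mRNAs, 11 and 0 for snoRNA hosts, 11 and 3 for biogenesis, 13 and 2 for initiation factors and 4 and 4 for growth control, with 6 chaperones and 60 mitochondrial ribosomal proteins higher. Without ribosomal protein and mitochondrial genes, those higher were 10 TOP mRNAs, 2 biogenesis genes, 5 initiation factors and 15 mitochondrial ribosomal proteins, and in CHIR over DMSO 2 mitochondrial ribosomal proteins were higher and 5 lower. The other counts were within 1.5 times of those reported.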

Other observations

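The mitochondrial ribosome, whose proteins are encoded by nuclear MRPL and MRPS genes, had a lower median ratio than the cytosolic one in both comparisons. Of 78 mitochondrial ribosomal protein genes, 0 were higher by 1.5-fold or more in CHIR over DMSO and 12 (15.4%) were lower by as much, beside 25.4% and 26.1% of all genes of at least 20 UMIs, with a median log2 ratio of −0.30, against 0.34 for the cytosolic members. In muscle-gated cells these numbers were 2 and 11 (median −0.18), beside 20.7% and 26.1% of all genes, and in mesenchymal-gated cells 0 and 15 (median −0.32), beside 32.8% and 24.1%. In DMSO over day 11, 7 (8.97%) were higher and 0 lower, beside 8.28% and 54.5% of all genes, with the median at 0.08, against 0.64 for the cytosolic members, and the TMM shift of 0.67 applies to both.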
